A study of Mus musculus with 20 samples.

Results

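The 5 genes of the muscarinic acetylcholine receptor family, Chrm1 to Chrm5, were compared between lumbar and sacral dorsal root ganglia (DRG) of the mouse embryo. The rule took the whole family and used no measured value, and each symbol matched 1 Ensembl identifier of the deposited expression table: 5 of the 29049 genes with a value in at least 1 library. All 5 also passed the filter on low expression, which required a mean of at least 1 CPM (reads scaled to library size) in at least 1 group and left 16540 genes to test. Chrm5 passed with the least room, at 1.56 CPM in its highest group, against 49.1 for Chrm2.

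RNA sequencing was done on whole DRG, the ganglia beside the spinal cord that hold the cell bodies of sensory neurons with their glia, from C57Bl6 embryos at E18.5, shortly before birth, with no treatment named in the labels. Each of 10 donor embryos gave 1 lumbar library (L4-5) and 1 sacral library (L6-S1, called sacral by the authors). This made 4 groups of 5, from males and females at each level. Donors are named as in the labels (M1, M3, M5, M7 and M8 for males, and F3, F7, F8, F9 and F10 for females). The comparison addressed whether the sacral ganglia, which innervate the pelvic organs, express these receptors at other levels than lumbar ganglia that serve the hind limb. The authors state that visceral neurons are far fewer than somatic ones in the sacral ganglia too. They had already reported Chrm2 as higher in lumbar DRG in these embryos. In sorted Trpv1 neurons of adult mice they reported it as higher at the sacral level.

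Muscarinic receptors are G-protein-coupled receptors for acetylcholine. Chrm1, Chrm3 and Chrm5 encode receptors that couple to Gq proteins and activate phospholipase C, which among other effects closes the M-current potassium channels. Chrm2 and Chrm4 encode receptors that couple to Gi/o proteins, which inhibit adenylyl cyclase and open inwardly rectifying potassium channels. In sensory neurons muscarinic receptors are known for modulating nociceptor excitability, and in the bladder wall they mediate contraction.

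The 5 genes are distinct loci (mouse build NCBIM37, also called mm9). Chrm1 (ENSMUSG00000032773) lies on chromosome 19 at 8738495 to 8758077 on the plus strand, with 3 annotated exons. Chrm2 (ENSMUSG00000045613) spans 36338084 to 36478414 on the plus strand of chromosome 6, with 4 exons. Chrm3 (ENSMUSG00000046159) was annotated as a single exon of 1949 bases on the minus strand of chromosome 13, at 9876381 to 9878329. Chrm4 (ENSMUSG00000040495) has 2 exons on the plus strand of chromosome 2, at 91762346 to 91769986. Chrm5 (ENSMUSG00000074939) was also a single exon, of 1746 bases, on the minus strand of chromosome 2 at 112319229 to 112320974. In this annotation the exons of Chrm3 and Chrm5 hold little more than the coding sequence, of 1770 and 1599 bases, so that reads from long untranslated ends of these transcripts would not have been counted.

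The coding sequences differ between members even where the proteins are most alike. The 57 bases around the codons of the conserved DRY motif, at the inner end of the third membrane-spanning helix, are printed to show how similar the templates were that had to be told apart; they were read from the GENCODE M1 transcripts, and capitals mark the 3 codons of the motif. The motif begins at codon 122 of Chrm1 (chr19:8752762-8752818, plus strand), codon 120 of Chrm2 (chr6:36473543-36473599, plus), codon 164 of Chrm3 (chr13:9877723-9877779, minus), codon 128 of Chrm4 (chr2:91767763-91767819, plus) and codon 127 of Chrm5 (chr2:112320516-112320572, minus).
Chrm1: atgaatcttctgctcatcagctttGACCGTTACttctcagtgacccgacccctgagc
Chrm2: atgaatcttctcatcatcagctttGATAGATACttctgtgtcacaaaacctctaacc
Chrm3: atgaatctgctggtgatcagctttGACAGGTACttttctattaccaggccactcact
Chrm4: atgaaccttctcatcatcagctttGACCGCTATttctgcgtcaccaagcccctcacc
Chrm5: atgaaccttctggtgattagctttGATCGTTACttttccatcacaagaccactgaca

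The windows of Chrm2 and Chrm4, the Gi/o-coupled pair, shared 47 of 57 bases, and those of Chrm3 and Chrm5 shared 45. The other pairs shared 41 to 44 bases. Across whole coding sequences, aligned bases were identical at between 64.4% (Chrm1 and Chrm2) and 70.9% (Chrm1 and Chrm5). The longest exact run shared by a pair of transcripts was 29 bases, between Chrm1 and Chrm4, and the shortest such maximum was 17 bases.

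Chrm2 had the highest expression of the family at both levels. Its mean was 2.48 ± 0.65 log2 RPKM in lumbar and 1.20 ± 0.65 in sacral DRG (SD, n = 10). RPKM is reads scaled to transcript length and to library size as adjusted by the authors, with 1 median shared by all libraries. Chrm4 came next, at 0.84 ± 0.45 lumbar and 0.57 ± 1.20 sacral, followed by Chrm3 at 0.32 ± 0.71 and -0.68 ± 1.21. Chrm5 and Chrm1 were the lowest: Chrm1 had -1.67 ± 0.96 and -1.68 ± 0.88, and Chrm5 -2.20 ± 1.98 and -0.92 ± 1.14. Over all libraries, Chrm2 stood at the 53.2 percentile of mean log2 RPKM among tested genes, whereas Chrm4 stood at 31.6, Chrm3 at 18.6, Chrm5 at 6.73 and Chrm1 at 6.14.

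The order within libraries was steadier at the lumbar than at the sacral level. Chrm2 was the highest of the 5 in 10 of 10 lumbar and 9 of 10 sacral libraries, with Chrm4 highest in the sacral library of M1. Chrm4 exceeded Chrm3 in 9 of 10 libraries at each level, although their means lay within about 1 SD of each other in lumbar DRG. Chrm3 exceeded both Chrm1 and Chrm5 in all 10 lumbar libraries, but in the sacral libraries it exceeded Chrm1 in 7 and Chrm5 in 6. Chrm1 and Chrm5 were not separated at the lumbar level, where Chrm1 was the higher in 6 of 10 libraries, and at the sacral level Chrm1 was the higher in 3 of 10.

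**Figure D1:**
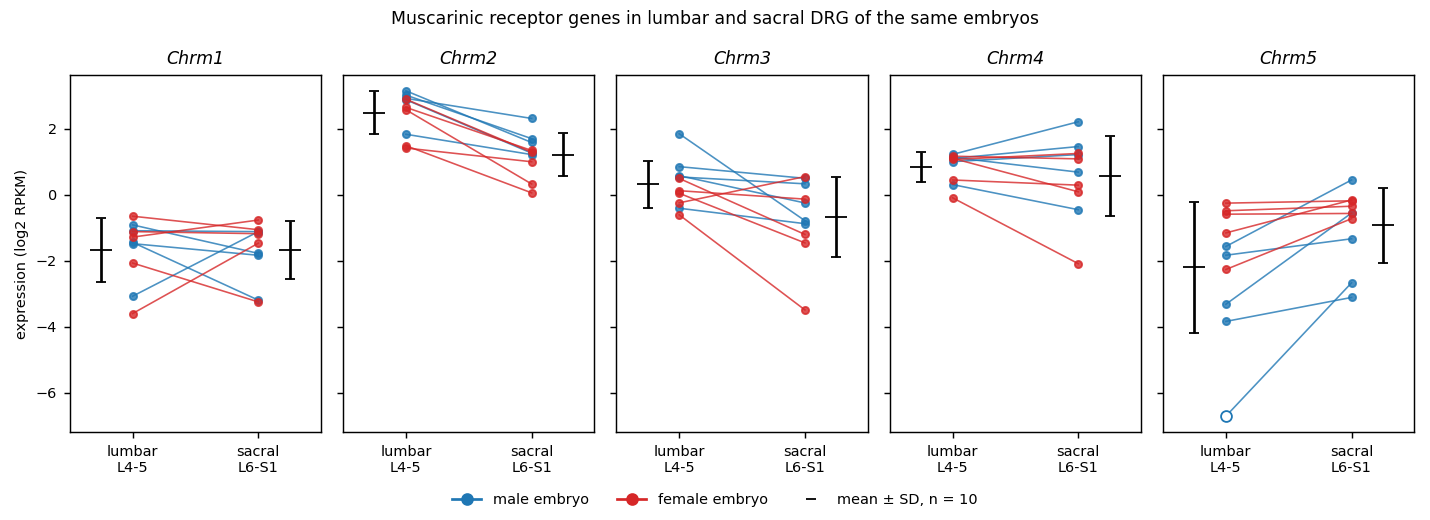
Expression of the 5 muscarinic receptor genes (log2 RPKM, y axis) in lumbar and sacral DRG; each line joins both libraries of 1 embryo (blue male, red female), and black marks give mean ± SD over 10 libraries. The 10 lines of Chrm2 all slope down from lumbar to sacral and the 10 lines of Chrm5 all slope up, whereas those of Chrm1, Chrm3 and Chrm4 run in both directions; the open circle is the lumbar library of M3, which had 0 reads of Chrm5 and is drawn at the value of 0.5 reads.

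The depth behind these values differed widely between members. Libraries held between 19675888 and 39819760 reads assigned to genes. A library gave 145 to 1818 reads of Chrm2 (15416 in all), 15 to 398 of Chrm4, 13 to 148 of Chrm1, 4 to 200 of Chrm3 and 0 to 67 of Chrm5 (523 in all). Counting error alone gave Chrm2 an expected SD of 0.050 on the log2 scale in lumbar DRG, small beside the observed 0.65; for Chrm5 the expected counting SD was 0.79 of an observed 1.98. Because cDNA was amplified and molecules were not tagged, these figures cover counting error only.

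Of the Gi/o-coupled receptors, Chrm2 fell in sacral DRG and Chrm4 did not pass the test. In the lumbar male libraries Chrm2 had 2.87 (M1), 3.01 (M3), 1.83 (M5), 2.91 (M7) and 3.14 (M8) log2 RPKM, and in the sacral male libraries of the same donors 1.26, 1.70, 1.21, 2.31 and 1.58. In lumbar females it had 2.89 (F3), 1.48 (F7), 1.41 (F8), 2.64 (F9) and 2.57 (F10), and in sacral females 1.28, 0.055, 0.995, 1.34 and 0.32. Each donor had the lower value in its sacral library. The female groups did not overlap, which held for 0.889% of tested genes in this direction, and the male groups overlapped because the lumbar library of M5 lay below the sacral library of M7.

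The within-donor difference of Chrm2, sacral minus lumbar, ran from -2.25 (F10) to -0.42 (F8) on the log2 scale, with a mean of -1.27 ± 0.57 (SD, n = 10 donors). In males the mean was -1.14 ± 0.50 and in females -1.40 ± 0.66 (n = 5 each). By limma, with donor as a block, the level of Chrm2 was 2.42-fold lower in sacral DRG (-1.27 ± 0.19 SE, Benjamini-Hochberg adjusted p = 0.000485 over all tested genes). The exact two-sided sign-flip permutation test over donors gave p = 0.00195, the smallest that 10 donors allow. Chrm2 was the only member called: 1 of 5, where 6.05% of the 16540 tested genes were called for level and 3.52% were called lower (418 higher and 583 lower). With scaling to reads outside mitochondrial rRNA, 481 genes were called higher and 344 lower, and Chrm2 was still called lower, at -1.21 ± 0.17 (adjusted p = 0.000225). A difference in this direction in all 10 donors was seen for 1.8% of tested genes. By the size of the difference, Chrm2 ranked 45 of the 583 genes called lower in sacral DRG, and 0.441% of all tested genes had a difference as negative as its own or more so.

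Chrm4 ranged from -0.095 (F7) to 1.22 (M1) log2 RPKM in lumbar DRG, with a median of 1.08. In sacral DRG it ranged from -2.09 (F7) to 2.21 (M1), with a median of 0.88. The sacral libraries were thus the more spread out on both sides, and the levels overlapped. The difference was -0.27 ± 0.28 (SE; limma adjusted p = 0.591), with 6 of 10 donors lower in sacral DRG and an exact sign-flip p of 0.352. It rested largely on F7, at -1.99, and with F7 and M5 left out, a choice made after seeing the data, the mean was 0.0062. In males the mean within-donor difference was 0.072 ± 0.69 and in females -0.61 ± 0.89.

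Among the Gq-coupled receptors no member passed the test across all genes, but Chrm3 and Chrm5 showed differences of about the size of that of Chrm2, in opposite directions. Chrm3, the subtype known for driving smooth muscle contraction and gland secretion, had a lumbar range of -0.61 (F7) to 1.84 (M7) log2 RPKM with a median of 0.30. Its sacral range was -3.49 (F7) to 0.55 (F8), with a median of -0.52. Sacral values were lower in 9 of 10 donors, with F8 as the exception at 0.79 higher. For comparison, 6.86% of tested genes were lower in at least 9 of 10 donors.

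The fitted difference of Chrm3 was -1.002 ± 0.33 (SE), or 2.003-fold lower in sacral DRG. By limma p was 0.00596 unadjusted and 0.0708 adjusted over all tested genes, and the exact sign-flip p, unadjusted, was 0.0215. Differences within donors were uneven: F7 (-2.88) and M7 (-2.63) had the strongest, against -0.21 in M8 and -0.25 in F3. The sacral library of F7 held 4 reads of Chrm3, 1 of the thinnest counts behind any member. The adjusted p was 0.0145 without F8 and 0.0225 with libraries weighted by their quality, and it ranged up to 0.221 under the other settings.

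Chrm5, a receptor best known from midbrain dopamine neurons, had few reads, which are given here in place of log2 values. The lumbar male libraries held 5 (M1), 0 (M3), 2 (M5), 14 (M7) and 20 (M8) reads, and the sacral libraries of the same donors 37, 9, 4, 19 and 67. The lumbar female libraries held 12 (F3), 19 (F7), 48 (F8), 51 (F9) and 35 (F10) reads, and the sacral libraries 41, 36, 31, 39 and 34. A count of 0 allows up to 3 reads. In the deposited log2 RPKM, every donor had the higher value in its sacral library, by 0.022 (F8) to 4.04 (M3). On the same scale, 0.919% of tested genes were higher in all 10 donors. For F8 and F9 this direction depended on the scaling. Against all reads of the library, the count of F9 was lower in sacral DRG (39 of 23101948) than in lumbar DRG (51 of 26733700). Against reads outside mitochondrial rRNA, the count of F8 was slightly lower in sacral DRG (31 of 14661419) than in lumbar DRG (48 of 22659299).

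The mean within-donor difference of Chrm5 was 1.28 ± 1.32 (SD, n = 10), or 2.43-fold higher in sacral DRG. It was 2.01 ± 1.47 in males and 0.55 ± 0.68 in females, where F8, F9 and F10 differed by less than 0.14 each. The exact sign-flip p was 0.00195, the smallest possible, whereas limma gave 1.28 ± 0.43 (SE) with an adjusted p of 0.0762. The size depends on the value put in for the 0 reads of M3: 1.181 with 1 read, 1.38 with 0.25 reads, 0.80 with 0.1 RPKM added to all values, and 0.97 without M3. The adjusted p was at most 0.05 under 1 of 21 settings, at 0.0427 with libraries weighted by quality, and was 0.0558 at the lowest with 1 donor left out.

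Chrm1, the subtype typical of forebrain neurons, differed least between levels. Its lumbar values ran from -3.60 (F7) to -0.65 (F9) log2 RPKM with a median of -1.37, and its sacral values from -3.25 (F8) to -0.77 (F3) with a median of -1.33. The difference was -0.0040 ± 0.35 (SE; limma adjusted p = 0.997), with 7 donors lower and 3 higher in sacral DRG. Single donors nevertheless moved far in either direction: F7 (2.13) and M1 (1.96) were higher in sacral DRG, and M8 (-1.75) and F8 (-1.177) were lower. With an SE of 0.35, a difference well above that size could have been missed. In the same fit Chrm3, at -1.002 ± 0.33 (SE), was not called.

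**Figure D2:**
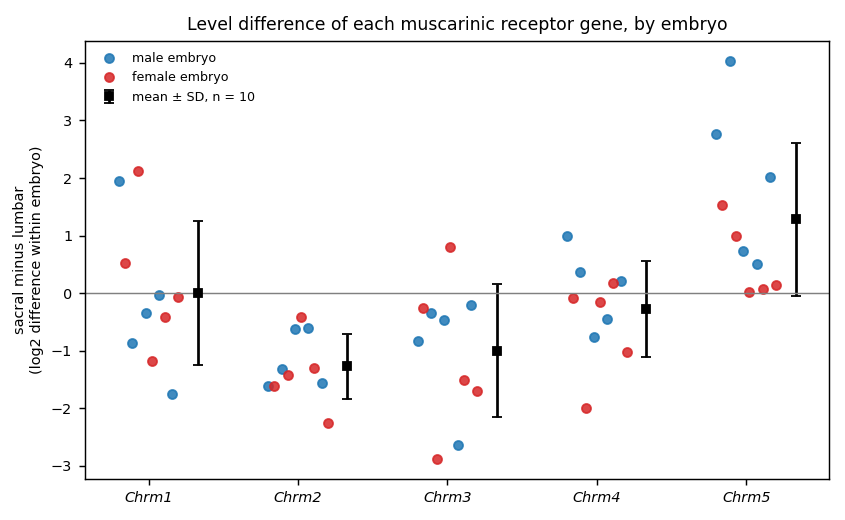
Within-embryo difference of each receptor gene (sacral minus lumbar, log2, y axis) with 1 point per embryo (blue male, red female) and black squares for mean ± SD over 10 embryos. All 10 points of Chrm2 lie between -2.25 and -0.42, and all 10 of Chrm5 lie above 0, between 0.022 and 4.04.

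Whether the level difference varied between members was tested on the same donors, for all 10 pairs of genes. The differences of Chrm2 and Chrm5 lay apart by -2.55 ± 1.57 (SD), with Chrm2 the lower in 10 of 10 donors (exact sign-flip p = 0.00195, 0.013 after Benjamini-Hochberg adjustment over the 10 pairs). Chrm3 lay below Chrm5 by -2.28 ± 1.52 and Chrm4 below Chrm5 by -1.55 ± 1.15, each in 9 of 10 donors (both exact p = 0.00391, adjusted 0.013). These 3 pairs passed under all 15 alternative settings tried.

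The difference of Chrm2 also lay below that of Chrm4, its Gi/o-coupled relative, with a mean of -1.002 ± 1.01 and 8 of 10 donors lower (exact permutation p = 0.0195, adjusted 0.0456), but this was lost in 7 of 15 settings. The pair of Chrm1 and Chrm2, at 1.27 ± 1.51, and the pair of Chrm1 and Chrm5, at -1.28 ± 1.76, had the same adjusted p and were lost in 10 and 9 settings. No difference was detected between Chrm2 and Chrm3 (-0.27 ± 1.1798; exact permutation p = 0.479, adjusted 0.532), and the wide SD leaves room for one. Chrm3 and Chrm4 differed by -0.73 ± 0.97, which missed the threshold after adjustment (exact permutation p = 0.0469, adjusted 0.067).

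The makeup of the family's transcripts is given as a description, without a test. Chrm2 supplied 59.2% ± 6.6 of the summed RPKM of the 5 genes in lumbar DRG and 40.8% ± 11.02 in sacral DRG (SD, n = 10). Chrm4 supplied 19.1% ± 2.5 and 27.9% ± 11.7, and Chrm3 13.7% ± 4.5 and 12.4% ± 6.8. The share of Chrm5 was 4.36% ± 4.03 in lumbar and 12.3% ± 9.6 in sacral libraries, and that of Chrm1 3.70% ± 1.59 and 6.59% ± 3.91. Shares sum to the whole, so a lower share of Chrm2 raises the others without any change in their own RPKM.

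**Figure D3:**
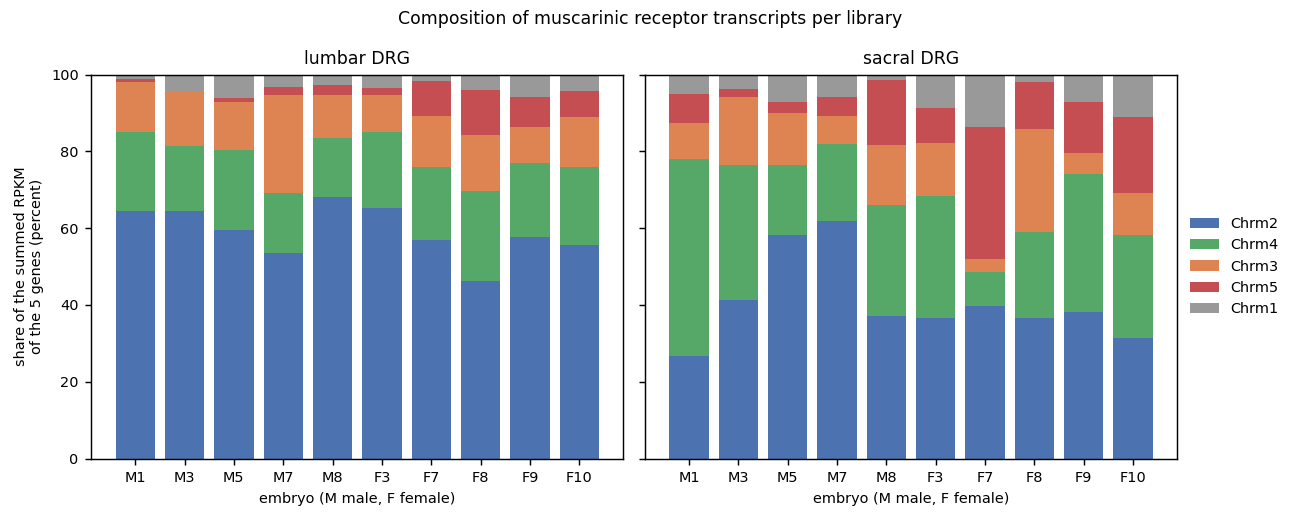
Share of each gene in the summed RPKM of the 5 muscarinic receptor genes (percent, y axis) in every lumbar (left) and sacral (right) library, ordered by embryo. Chrm2 (blue) takes 46.1% to 68.0% of each lumbar bar and 26.6% to 62.0% of each sacral bar; the sacral library of F7 has the largest share of Chrm5 (red), at 34.2%.

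No member was called between the sexes at either level or for an interaction of sex and level. Chrm5 came nearest, in lumbar DRG, where its values ran from -6.71 to -1.57 log2 RPKM in males and from -2.27 to -0.26 in females, with F3 inside the male range. The female level was higher by 2.50 ± 0.73 (SE, limma; unadjusted p = 0.00262, adjusted 0.253), a size that again depends on the 0 reads of M3; 7.88% of tested genes had an unadjusted p under 0.05 in this comparison. In sacral DRG the difference was 1.05 ± 0.73 (adjusted p = 0.514). Of all tested genes, 0.278% were called between the sexes in lumbar and 0.852% in sacral DRG.

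Chrm2 was lower in females at both levels without passing the test. It had 1.61 ± 0.44 log2 RPKM in sacral males and 0.80 ± 0.58 in sacral females (SD, n = 5 each), a difference of -0.81 ± 0.32 (SE, limma; unadjusted p = 0.0204, adjusted 0.253), where 14.6% of tested genes had an unadjusted p under 0.05. In lumbar DRG it was -0.56 ± 0.32 (adjusted p = 0.724). The interaction terms of the 5 members lay between -1.45 ± 0.85 for Chrm5 and 0.41 ± 0.71 for Chrm1, each with an adjusted p of 0.996. By limma 0 of 16540 genes were called for the interaction, with 582 (3.52%) at an unadjusted p under 0.05, none of them a member.

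Of 40 genes listed for the cholinergic pathway around the receptors, 39 had a value and 35 were tested; 1 rose and 2 fell in sacral DRG, a share near the 6.05% called of all tested genes, so the count is no result about the pathway. Their median level difference was -0.15, with 25 of 35 below 0, beside a median of -0.037 over all tested genes. Slc5a7, the high-affinity choline transporter, had lumbar values of -0.36 to 1.22 and sacral values of 0.019 to 2.30 log2 RPKM and rose in 10 of 10 donors, by 1.05 ± 0.18 (SE, limma adjusted p = 0.00213). It was the 1 gene called among the 5 tested for supply and removal of the ligand. Ache, which degrades acetylcholine, differed by 0.023 ± 0.18 (adjusted p = 0.955) and Bche, a second cholinesterase, by -0.27 ± 0.12 (adjusted p = 0.188).

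None of the 10 genes of the Gq arm was called, and none of the 10 tested genes of the Gi/o arm. In the first, Gnaq, the G protein subunit itself, differed by -0.098 ± 0.13, and the channel genes Kcnq3 and Kcnq5 by -0.30 ± 0.19 and 0.16 ± 0.14 (SE). In the second, Gnao1 differed by -0.13 ± 0.18 and Kcnj3, a subunit of the G-protein-gated potassium channel, by -0.23 ± 0.13. The 10 tested genes of desensitisation held both genes that fell. Rgs2, which acts on Gq, fell by 0.51 ± 0.098 (SE, limma adjusted p = 0.00417) and was lower in 10 of 10 donors; its adjusted p was 0.0533 without M5 and F7. Rgs4, which acts on Gq and Gi/o subunits, fell by 0.58 ± 0.17 (adjusted p = 0.0497, lower in 9 of 10 donors), and its call was lost under 14 of 22 settings, among them 9 of the 10 that left out 1 donor.

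**Figure D4:**
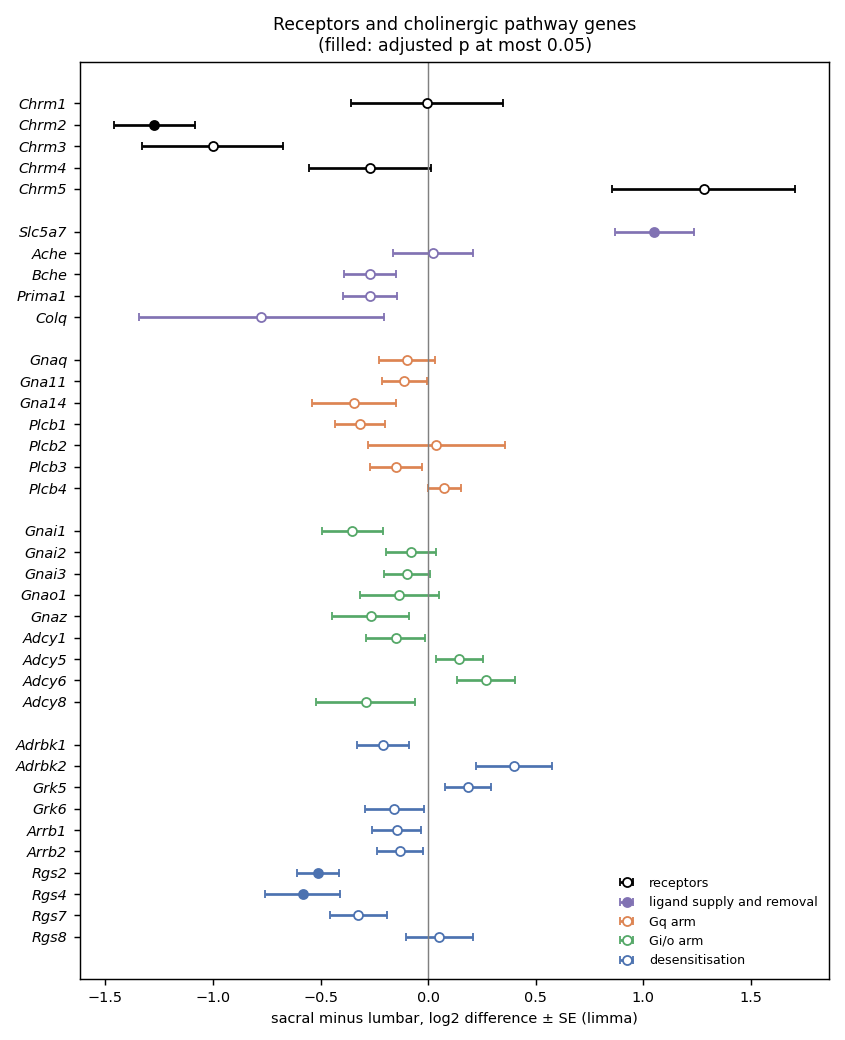
Level difference (sacral minus lumbar, log2, x axis; bars are ± SE from limma) of the 5 receptors and the tested pathway genes other than potassium channels, coloured by role, with filled points for an adjusted p at most 0.05. Chrm2, Slc5a7, Rgs2 and Rgs4 are filled, at -1.27, 1.05, -0.51 and -0.58.

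Over the 20 libraries, the genes that followed each member most closely were ranked by the root-mean-square distance between log2 profiles, each centred on its own mean, among the 16105 tested genes with no blank. Closest to Chrm2 were Bdnf, a neurotrophin, at 0.29, Serpina3n at 0.30 and Pappa2, a metalloproteinase, at 0.31, against a spread of 0.89 for Chrm2 itself. Their level differences were -1.43, -1.08 and -0.91 on the log2 scale, given as a description with no test, because genes picked for a profile like that of Chrm2 over the same libraries share its direction. Among the nearest profiles to Chrm4 were Spock3 (0.43) and Cd9-ps (0.43), with 0.87 for its own spread. Distances were larger for Chrm3 (0.56 and 0.57 to the 2 identifiers that carry the symbol Nkain2, and 0.57 to 4930429B21Rik) and for Chrm1 (0.62 to Gm13713, 0.63 to Syt17 and 0.64 to Gm12070), beside spreads of 1.07 and 0.87. No gene was ranked for Chrm5, which had a blank.

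Whole ganglia were sequenced, so a lower level of a receptor in fewer cells cannot be told apart from less RNA per cell. All 8 listed markers of sensory neurons were expressed and none was called, with a median level difference of -0.25 and 7 of 8 below 0; their summed RPKM was 264 to 723 in lumbar and 161 to 658 in sacral libraries. Of 8 markers of satellite glia and Schwann cells 4 fell (median -0.37; summed RPKM 233 to 340 lumbar and 161 to 278 sacral), and 3 of 6 fibroblast and meningeal markers rose (median 0.39; summed RPKM 147 to 373 lumbar and 223 to 527 sacral). Of the markers of large myelinated neurons 2 of 5 fell, with a summed RPKM of 61.7 to 137 lumbar and 50.8 to 87.8 sacral. Of 6 nociceptor markers 1 rose and 1 fell, and 2 of 5 tested endothelial markers rose. None was called of 5 tested markers of smooth muscle, a tissue rich in Chrm2 and Chrm3, whose sum was 7.88 to 24.9 lumbar and 7.14 to 29.8 sacral, nor of the tested markers of skeletal muscle, macrophages or cholinergic neurons. Chat, which makes acetylcholine and defines cholinergic neurons, had 0 to 4 reads per library. For comparison, 3.52% of all tested genes were called lower and 2.53% higher in sacral DRG, and their median level difference was -0.037. Of the 49 tested markers 7 were called lower and 6 higher. The part of these cell types in the receptor differences was not tested.

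Mitochondrial rRNA took between 17.7% and 60.9% of the reads of a library, and over 40% in both libraries of M5 and of F7. The lumbar library of F8 was also over 40%, at 43.1%. Chrm2 had its 3 lowest lumbar values in these donors, with 1.83 (M5), 1.48 (F7) and 1.41 (F8) log2 RPKM. Its level difference was -1.33 ± 0.20 without M5 and F7 (SE, limma adjusted p = 0.00157; chosen after seeing the data), -1.40 ± 0.18 without F8 (adjusted p = 0.000128) and -1.25 ± 0.15 with the rRNA share as a covariate (adjusted p = 5.4e-05). Some reads overlap other genes: 142 exon bases of Chrm2 are shared with the opposite-strand lincRNA 9330158H04Rik, 25 of Chrm4 with Mdk and 329 of Chrm1 with a 7SK RNA. Whether counting used the strand is not stated, so reads in these stretches cannot be assigned with certainty.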

How the data were processed

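The authors amplified total RNA of each ganglion sample to cDNA, sequenced it on an Illumina HiSeq2500, aligned the reads to mm9 with Subread (1.18 or higher), kept unique hits and counted them over Ensembl genes with featureCounts. The deposited values are log2 RPKM made by the authors with limma 3.26.9 (R 3.2.2) after TMM scaling in edgeR 3.12.1, and all libraries share 1 median (0.930302). The study's own test, voom on raw counts with donor blocking, was replaced here by limma on the deposited values, since the table used here holds log2 RPKM.

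Groups and donors came from the sample labels. With gene lengths from GENCODE M1, 99.97% of values were whole multiples of 1 read (within 0.05 reads), which gave reads per gene and library. Where that length did not give whole reads, the shortest length that did was used (672 genes, among them Chrm1, with 6487 in place of 6271 bases). Blanks were set to 0.5 reads. Depth was 19675888 to 39819760 reads.

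All genes with a mean of at least 1 CPM in 1 group were fitted with limma 3.58.1 (R 4.3.3, statmod 1.5.0): a mean per group, donor as a block by duplicateCorrelation, variance trend, and Benjamini-Hochberg adjustment over all 16540 genes with a threshold of 0.05. Lumbar and sacral libraries with the same donor code come from the same embryo, which is where the pairing comes from, and the donor correlation was 0.32. Female minus male was tested at each level, and the interaction with it. Exact sign-flip permutation tests (two-sided) used the 10 within-donor differences. Scripts were tested on simulated data; Python 3.11.15, numpy 2.4.6, pandas 2.3.3 and biopython 1.88 (sequence alignment) were used.

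The named genes were the 5 members, the pathway genes that passed the test with examples of each role, and the 3 genes nearest in profile to each member; some items under this rule are not reported here. Members and gene lists were chosen with earlier results of these data known. Alternatives were no block, donor as a factor, other filters, blanks and pseudocount, scaling without mitochondrial rRNA, weights, rRNA share as a covariate, and each donor left out.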

Additional observations from a re-analysis of the deposited data

Results flagged for a closer look

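In 4 of 25 sets of values (each member in each group of 5 libraries, and each member's 10 within-donor differences) 1 library stood apart from the rest by Dixon's test at the 95% level, which chance alone does in about 1 in 20. The lumbar male library of M5, which had the highest share of mitochondrial rRNA (60.9%), was the lowest of its group for Chrm2, at 1.83 log2 RPKM with the next library at 2.87, and for Chrm4, at 0.30 with the next at 0.999. For Chrm1, the lumbar male library of M1 stood at -3.08 (22 reads) with the next at -1.48, and the sacral female library of F8 at -3.25 (18 reads) with the next at -1.47. None of the 5 sets of within-donor differences had such a value.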

How the results depend on the processing

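Chrm2 was called lower in sacral DRG under all 22 alternatives (-1.46 to -1.17; adjusted p 4.4e-06 to 0.00874). Without the replicate block its adjusted p was 0.00874, and with donor as a factor 0.000673; no other member was called in either paired or unpaired fit. The number of genes called for level was 1001; it was 195 without the replicate block, 1056 with donor as a factor, 510 with no filter, 2849 with array weights, 319 without M5 and F7 (added after seeing the data), and 436 (without F10) to 1636 (without F8) with 1 donor left out. Members called were 3 with array weights, where Chrm3 (-0.97) and Chrm5 (1.495) passed, and 1 to 2 with 1 donor left out, where Chrm3 (-1.24 to -0.78) passed without F8. Chrm1 changed sign with scaling without mitochondrial rRNA (0.061, also within donors), with the rRNA share as covariate (0.015) and over left-out donors (-0.27 to 0.19, within donors -0.24 to 0.19). Chrm4 was 0.0062 without M5 and F7, where the exact sign-flip p of Chrm3 was 0.0625. Scaling without mitochondrial rRNA moved the median sex difference of all genes in sacral DRG from -0.015 to 0.12. No member was called by sex or interaction under any of 21 alternatives. Signs turned for Chrm1 by sex in lumbar DRG (0.14 with array weights, 0.35 without M5 and F7, -0.51 to 0.32 over left-out donors) and in sacral DRG (-0.082 to 0.69), for the interaction of Chrm1 (-0.11 without M5 and F7, -0.076 to 0.95) and Chrm3 (0.34 and -0.69 to 0.23), and for Chrm1 against Chrm4 (-0.23 and -0.16 to 0.51). The causes were not tested. Counting error alone gave an expected SD of 0.61 of an observed 1.70 for Chrm5 over all libraries, 0.26 of 1.10 for Chrm3 and 0.22 of 0.90 for Chrm1. Both values of Chrm5 include the 0 reads of M3, set to 0.5 reads.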

Other observations

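Of the G-protein-gated potassium channel subunits that Gi/o-coupled receptors open, Kcnj3 was expressed at a mean of 1.45 log2 RPKM (118 to 687 reads per library), whereas Kcnj5 (0 to 13 reads), Kcnj6 (0 to 31) and Kcnj9 (0 to 35) did not pass the filter. The acetylcholine-degrading enzymes were well covered, with a mean of 2.95 for Ache and 2.79 for Bche, while Chat was at 0 to 4 reads in these ganglia. Rgs4 was the most highly expressed of the 35 tested pathway genes, at 7.21 log2 RPKM.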
